A study of Homo sapiens with 21 samples.

Results

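The 44 genes described here make or regulate cholesterol and other lipids. They were chosen by symbol from their known roles, though with earlier results of these data already known. Among them are 18 enzymes of sterol synthesis, 6 genes of SREBP control, 8 of fatty acid synthesis, 7 of LXR signaling and cholesterol efflux, and 5 of PPAR signaling and lipid storage. All 44 were found among the 58174 gene identifiers of the files, and 41 had at least 10 counts in every library. APOC1 and FABP4 had too few counts to be tested, which left 42 genes in each comparison.

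RNA from OCI-AML5, a human acute myeloid leukemia cell line, was sequenced in 21 libraries that fell into 7 groups of 3. Control cells received DMSO, the vehicle, or UM171, a small molecule used to expand human blood stem cells in culture, at 500 nM for 6, 24, 48 or 72 h. Cells carrying sgEPCR, a CRISPR guide against PROCR, which encodes the protein C receptor EPCR, received DMSO or UM171 at the same dose for 24 h. The dose is that of the labels, and the study's text gives another. The study's text describes the control cells of the genotype comparison as carrying sgAAVS1, a guide against a safe-harbor locus, whereas the labels give the control cells no genotype. The labels call the sgEPCR cells EPCR null and, in another field, an EPCR knockdown, and the study's text names 3 independent clones without saying which clone gave which library. The labels place the control DMSO libraries at 72 h, which matches the 72 h UM171 libraries, whereas time and treatment cannot be told apart in the 6, 24 and 48 h comparisons with DMSO. The sgEPCR DMSO libraries are labelled 24 h, so that time and genotype cannot be told apart where they are set against control DMSO. Every group came from this single cell line grown with fetal bovine serum, a source of lipoprotein cholesterol. For the control cells neither labels nor methods say that replicates were separate cultures, and p-values then measure the spread between these libraries, which may be technical.

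Depth ranged from 24.3 to 51.5 M counts per library. In 2 libraries, sgEPCR DMSO replicate 1 and sgEPCR UM171 replicate 2, mitochondrially encoded genes took 35.9% and 32.2% of counts, against 7.73 to 13.5% in the other 19, and the counts and interactions in sgEPCR cells below are given with and without them. PROCR RNA was at 3.37, 4.30 and 3.38 TPM (a level per transcript length with the same total in each library) in control DMSO and at 2.30, 4.53 and 3.93 TPM in sgEPCR DMSO, and after 24 h of UM171 at 48.5 TPM in each control library against 8.94, 4.23 and 8.41 TPM in sgEPCR cells. In edgeR, PROCR was 0.42 higher on the log2 scale in sgEPCR than in control cells in DMSO (adjusted p = 0.022) and -2.63 after UM171 (adjusted p = 1.9e-07), so that its RNA marks the cells labelled sgEPCR after UM171 and not in DMSO. Of 8 myeloid markers, SPI1 was at 403 to 426 TPM in control DMSO, CD33 at 177 to 179, PTPRC at 159 to 166 and CSF2RA at 12.4 to 14.3, while CD34 and MPO were at 2.65 to 5.15 TPM and ANPEP and KIT at 0.20 TPM or less. The summed level of 6 markers of epithelial, stromal, lymphoid, endothelial and liver cells was 0.25 to 0.45 TPM in control DMSO and 1.61 to 2.08 TPM at 72 h, when EPCAM, COL1A1 and VWF were called higher and the others were untested for want of counts. Values in a list are in order of replicate number, log2 fold changes carry their standard error, and a gene was called at an adjusted p under 0.05 in edgeR's quasi-likelihood test over all genes tested.

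Cells make cholesterol from acetyl-CoA through mevalonate, squalene and lanosterol. The genes of this route are switched on together by SREBP2, the product of SREBF2, while SREBP1, the product of SREBF1, acts more on fatty acid synthesis. Both are held in the endoplasmic reticulum by SCAP and the INSIG proteins when sterols are plentiful, and are cut free to enter the nucleus when sterols are scarce. LXR receptors respond to oxidized sterols by raising cholesterol export and SREBF1, and PPAR gamma, encoded by PPARG, responds to fatty acids and raises genes of fatty acid uptake and storage. Macrophages, the mature relatives of myeloid leukemia cells, are known for strong LXR and PPAR gamma responses.

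Most of the genes fell at 6 h of UM171 and lay well above DMSO at 48 and 72 h. At 6 h, 29 of 42 were lower than in DMSO and 6 were higher, where 30.3% and 31.8% of all 16575 tested genes were lower and higher, and the median log2 fold change was -0.40 over the 42 genes against 0.02 over all genes. At 24 h, 19 were higher and 13 lower (34.9% and 34.8% of all genes), with a median of 0.10. At 48 h, 34 were higher and 2 lower (37.1% and 35.0%), with a median of 0.97, and at 72 h, 37 were higher and 4 lower (38.8% and 36.8%), with a median of 1.11 against 0.02 over all genes. Changes over 2-fold were 1 higher and 4 lower at 6 h, where 11.8% and 0.676% of all genes moved this far, and 4 higher and 1 lower at 24 h (12.1% and 7.88%). They were 20 higher and 0 lower at 48 h (15% and 7.58%) and 22 higher and 0 lower at 72 h (18.7% and 8.11%).

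At the study's stricter limits, which ask for more than 2-fold and an adjusted p under 0.0001, the early fall and the late rise both kept members. At 6 h, 4 of 42 genes were lower, where 0.247% of all genes were, and 1 was higher (6.78%). The 24 h comparison had 4 higher (9.03%) and 0 lower (4.7%), and the 48 and 72 h comparisons had 20 and 22 higher (11.7% and 15%) and 0 lower (4.67% and 5.8%).

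Steps between UM171 time points do not involve DMSO, but hours of UM171 and hours in culture cannot be told apart in them. At 24 h, 30 of the 42 genes were higher and 5 lower than at 6 h (32.5% and 34.6% of all genes), with a median of 0.36. From 24 to 72 h, 36 were higher and 3 lower (36.4% and 33.4%), with a median of 0.97. At the stricter limits the first step had 8 higher and 0 lower (3.61% and 6.43%) and the second 19 higher and 1 lower (8.89% and 3.04%). The mean level was highest at 72 h for 33 of the 42 genes, or 78.6%, against 26.4% of all tested genes, and lowest at 6 h for 22, or 52.4%, against 7.8%. Scaling to total counts in place of TMM moved the median of all genes at 6 h by 0.18, and the 6 h split then became 10 higher and 22 lower (44.8% and 14.7% of all genes), with a median of -0.22 over the 42 genes against 0.20 over all genes.

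**Figure D1:**
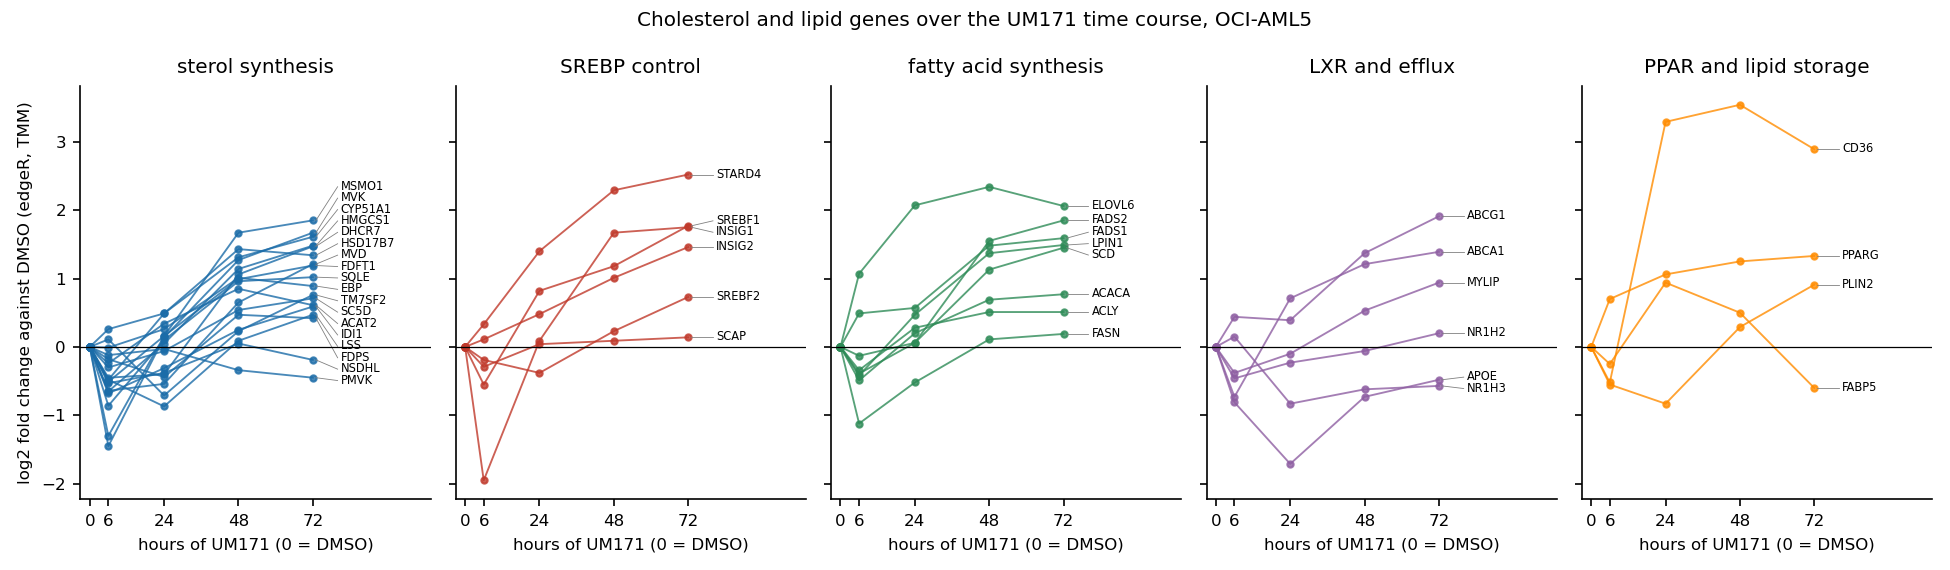
Log2 fold change against DMSO (vertical axis, edgeR with TMM scaling) at 6, 24, 48 and 72 h of UM171 (horizontal axis, hours, with DMSO drawn at 0) for the 42 tested genes, 1 line per gene and 1 panel per role. The DMSO libraries are labelled 72 h and are not a measured starting point. Most lines dip at 6 h, with INSIG1 lowest at -1.95, and end above 0 at 72 h, while PMVK, NSDHL, NR1H3, APOE and FABP5 end below 0.

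Several groups of genes moved beside these. The summed level of 6 proliferation genes (MKI67, TOP2A, CCNB1, PCNA, MCM2 and CDK1) was 934 to 1036 TPM in DMSO, 1243 to 1295 TPM at 24 h and 688 to 741 TPM at 72 h, when all 6 were lower than in DMSO. The summed level of 8 macrophage-associated genes was 125 to 144 TPM in DMSO and 216 to 240.1 TPM at 72 h. Of that list, ITGAX, CSF1R and CD68 were higher at 72 h and MSR1 did not pass, while CD14, CD163, MRC1 and C1QA were untested for want of counts and C1QA was at 0 in every library. The summed level of the 8 myeloid markers was 763 to 786 TPM in DMSO and 579 to 641 TPM at 72 h, when CD34 (-2.29), SPI1 (-1.0), MPO (-0.96) and CD33 (-0.13) were lower, ANPEP (1.59) and CSF2RA (0.45) higher, PTPRC did not pass and KIT was untested. Whether these changes had a part in the lipid gene results was not tested. In bulk RNA, a change in the number of cells of a kind and a change in RNA per cell cannot be told apart.

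Among the genes of SREBP control, INSIG1 had the deepest early fall of all 42. INSIG1 (chr7:155297776-155310235, GRCh38), which retains SREBP in the endoplasmic reticulum and is itself a target of SREBP, stood at 69.0, 71.7 and 70.9 TPM in DMSO, 27.6, 26.2 and 24.5 at 6 h, 71.6, 63.5 and 76.2 at 24 h, 203, 223 and 184 at 48 h and 220.2, 228 and 229 at 72 h. The 6 h libraries lay below all others of the time course and the 48 and 72 h libraries above all others, whereas those at 24 h straddled DMSO. The log2 fold change was -1.95 ± 0.06, adjusted p = 1.9e-13 at 6 h, 0.09 ± 0.05, adjusted p = 0.14 at 24 h, 1.67 ± 0.05 at 48 h and 1.75 ± 0.05, adjusted p = 1.4e-14 at 72 h.

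STARD4 and SREBF1 rose stepwise after 6 h. STARD4 (chr5:111496033-111512590), which encodes a carrier of cholesterol between membranes, stood at 18.4, 21.4 and 18.1 TPM in DMSO, 23.8, 26.7 and 28.0 at 6 h, 45.4, 40.7 and 47.3 at 24 h, 83.6, 92.3 and 67.0 at 48 h and 97.6, 99.8 and 112 at 72 h. It was already higher at 6 h, by 0.33 ± 0.08, adjusted p = 0.0013, and reached 2.52 ± 0.07, adjusted p = 9.7e-15 at 72 h, the largest rise of the 42 genes at that time after CD36. SREBF1, at 17.9, 17.3 and 18.4 TPM in DMSO, 12.7, 10.2 and 14.1 at 6 h, 25.0, 26.6 and 30.6 at 24 h, 40.2, 40.5 and 44.9 at 48 h and 57.8, 68.4 and 61.7 at 72 h, fell by 6 h (-0.55 ± 0.09, adjusted p = 5.8e-05), was above DMSO at 24 h (0.82 ± 0.09, adjusted p = 2e-07) and reached 1.77 ± 0.09 at 72 h, with no overlap between DMSO and any UM171 time point. SREBF2 changed less and later.

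SREBF2 levels were 78.6, 78.1 and 78.7 TPM in DMSO, 73.3, 75.3 and 71.3 at 6 h, 60.0, 60.0 and 64.6 at 24 h, 92.9, 91.2 and 73.8 at 48 h and 139, 137 and 138 at 72 h. Its fall at 24 h (-0.38 ± 0.04, adjusted p = 3.6e-07) followed a smaller fall at 6 h (-0.19 ± 0.04), with -0.19 ± 0.04, adjusted p = 0.00066 between those times, and at 72 h it was higher by 0.73 ± 0.04, adjusted p = 4.9e-11. INSIG2, the paralog of INSIG1, did not pass at 6 h (0.11 ± 0.07, adjusted p = 0.15) and rose to 1.46 ± 0.06 at 72 h. SCAP, the escort protein of SREBP, changed least of the 6, with 0.14 ± 0.06, adjusted p = 0.042 at 72 h. That call was lost when any DMSO library or 72 h replicate 1 or 2 was left out (0.12 to 0.15, adjusted p from 0.061 to 0.14). In this group 4 of 6 genes were lower at 6 h, where 30.3% of all genes were, and 6 of 6 were higher at 72 h, where 38.8% of all genes were.

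Promoter sequences are shown for SREBF2 and INSIG1, which hold the SREBP motifs searched for, and for MSMO1 and HMGCS1, sterol synthesis genes that moved together and hold CCAAT, the box bound by NF-Y, a known partner of SREBP. They come from RefSeq (GRCh38.p14, 250 bases before to 50 after each annotated start), where 37 of the 44 genes had an entry and ABCG1, ACAT2, FABP4, FABP5, FASN, FDFT1 and SQLE had none. Each is written 5′ to 3′ along the gene's strand, with matches on either strand in capitals. The SREBF2 match, chr22:41832962-41832990 on the plus strand, starts 133 bases before the start site, and the INSIG1 match, chr7:155297812-155297840 on the plus strand, 56 bases before a RefSeq start. The INSIG1 stretch lies inside the gene as located above, which begins at 155297776. The MSMO1 stretch is chr4:165327419-165327666, plus strand, and the HMGCS1 stretch is chr5:43313513-43313662, minus strand.
SREBF2: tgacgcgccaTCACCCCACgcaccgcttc
INSIG1: ccgggcaggcTCACGTGATgcgggccccg
MSMO1: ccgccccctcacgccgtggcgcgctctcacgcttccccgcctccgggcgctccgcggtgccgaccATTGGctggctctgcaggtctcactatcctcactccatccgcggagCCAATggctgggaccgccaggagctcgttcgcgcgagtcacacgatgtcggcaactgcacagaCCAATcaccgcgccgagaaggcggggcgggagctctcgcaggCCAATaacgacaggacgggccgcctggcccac
HMGCS1: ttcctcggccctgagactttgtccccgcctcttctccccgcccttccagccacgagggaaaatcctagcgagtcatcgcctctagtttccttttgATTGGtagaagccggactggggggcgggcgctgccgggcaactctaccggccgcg

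Written as TCACNCCAC and searched on both strands, the sterol regulatory element was found in SREBF2 alone of the 37 genes, against 1.39% of all 27305 genes with a promoter entry. ATCACGTGA, an E-box with the palindromic core CACGTG that is also bound by SREBP, was found in INSIG1 alone, against 0.31% of all genes. The CCAAT box was found in 25 of the 37 genes, or 67.6%, against 39.72% of all genes, and in 13 of 15 sterol synthesis genes with an entry. A gene was counted if any of its promoter entries held a match. Counted by entry, the box was in 30 of 64, or 46.9%, against 34.61% of all 35116 entries. Within the stretches shown, MSMO1 holds 4 matches, at 185, 139, 76 and 34 bases before its RefSeq start, and HMGCS1 holds 1, at 155 bases. The HMGCS1 stretch is 150 bases long and stops short of its RefSeq start, so any match nearer that start is not given here. These matches describe the letters in short windows only, and binding was not measured.

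The sterol synthesis enzymes moved mostly as a group. At 6 h, 14 of 18 were lower and 1, HSD17B7, was higher (30.3% and 31.8% of all genes), and their summed level went from 1167 ± 21.2 TPM (SD, n = 3) in DMSO to 1023 ± 44.6 TPM. The sum was 1094 ± 22.3 TPM at 24 h, 1856 ± 146 TPM at 48 h and 2148 ± 69.8 TPM at 72 h, when 16 of 18 were higher (38.8% of all genes). PMVK, phosphomevalonate kinase, and NSDHL, a sterol dehydrogenase, were the exceptions at 72 h, lower at log2 fold changes of -0.45 ± 0.11, adjusted p = 0.0019 and -0.19 ± 0.06, adjusted p = 0.0085. Without 72 h replicate 2 the NSDHL call was lost (-0.15, adjusted p = 0.051).

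HMGCS1, which makes HMG-CoA at the entry to the mevalonate route, stood at 22.2, 22.9 and 24.0 TPM in DMSO, 15.1, 18.1 and 15.9 at 6 h, 24.8, 21.8 and 22.8 at 24 h, 45.0, 55.3 and 45.0 at 48 h and 65.1, 63.5 and 71.8 at 72 h. The 6 h libraries lay below DMSO and the 24 h libraries overlapped DMSO, while each library at 72 h held more than any at 48 h. The log2 fold changes were -0.65 ± 0.07, adjusted p = 6.6e-07 at 6 h, 0.05 ± 0.07, adjusted p = 0.52 at 24 h and 1.48 ± 0.07, adjusted p = 2.5e-12 at 72 h. MVK, mevalonate kinase, stood at 5.62, 5.15 and 5.70 TPM in DMSO, 1.77, 2.02 and 3.11 at 6 h, 5.75, 5.25 and 7.41 at 24 h, 14.0, 13.1 and 10.3 at 48 h and 15.8, 18.8 and 18.8 at 72 h, with -1.45 ± 0.16, adjusted p = 5.6e-07 at 6 h and 1.67 ± 0.12 at 72 h. It was among the lowest of the group in level and among the most changed. ACAT2, which condenses acetyl-CoA at the first step, stood at 35.7, 39.4 and 40.3 TPM in DMSO, 34.1, 34.5 and 36.7 at 6 h, 49.2, 52.5 and 47.1 at 24 h, 66.8, 76.8 and 59.4 at 48 h and 58.8, 59.0 and 68.2 at 72 h and had its highest mean at 48 h, with 0.85 ± 0.05 then and 0.61 ± 0.05, adjusted p = 1.8e-08 at 72 h.

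MVD, which decarboxylates mevalonate diphosphate, stood at 20.3, 20.2 and 20.6 TPM in DMSO, 13.2, 13.2 and 17.9 at 6 h, 13.3, 13.1 and 16.8 at 24 h, 31.8, 32.3 and 26.1 at 48 h and 45.8, 50.4 and 52.1 at 72 h. It was lower at both 6 h (-0.64 ± 0.08) and 24 h (-0.54 ± 0.08, adjusted p = 7e-06) and higher at 72 h (1.21 ± 0.07, adjusted p = 5.3e-11). IDI1, the isomerase that follows it, stood at 85.0, 88.4 and 90.8 TPM in DMSO, 58.5, 65.6 and 68.2 at 6 h, 72.7, 69.6 and 75.0 at 24 h, 96.2, 112 and 87.3 at 48 h and 131, 133 and 149 at 72 h. It too was lower at 6 h (-0.68 ± 0.05) and 24 h (-0.31 ± 0.05), and its rise at 72 h was smaller, 0.59 ± 0.05, adjusted p = 1.2e-08. FDPS, which builds farnesyl diphosphate for both sterols and protein prenylation, changed by 0.42 ± 0.04, adjusted p = 2.6e-08 at 72 h, whereas FDFT1, which commits farnesyl diphosphate to sterols, changed by 1.19 ± 0.04, adjusted p = 2.3e-14.

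SQLE, squalene epoxidase, stood at 73.3, 82.7 and 82.9 TPM in DMSO, 47.3, 49.3 and 49.0 at 6 h, 92.5, 82.1 and 85.8 at 24 h, 138, 163 and 141 at 48 h and 172, 153 and 174 at 72 h. It fell at 6 h (-0.86 ± 0.06, adjusted p = 1.8e-09), overlapped DMSO at 24 h (0.10 ± 0.06, adjusted p = 0.11) and was higher at 72 h (1.02 ± 0.06, adjusted p = 2.2e-11). LSS, which closes the ring to make lanosterol, was the most reduced of the group at 24 h (-0.87 ± 0.05, adjusted p = 6.6e-11), and at 72 h it was higher by 0.47 ± 0.05, adjusted p = 8e-08.

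Past lanosterol, MSMO1, which removes methyl groups from the sterol ring, had the largest rise of the group. Its levels were 27.8, 26.8 and 27.4 TPM in DMSO, 12.1, 11.2 and 12.8 at 6 h, 29.0, 29.0 and 31.0 at 24 h, 78.6, 88.1 and 75.9 at 48 h and 95.8, 92.0 and 110.2 at 72 h, with -1.30 ± 0.07, adjusted p = 1.8e-10 at 6 h and 1.85 ± 0.06, adjusted p = 5.6e-14 at 72 h. The 6 h libraries held less than any DMSO library and the 48 and 72 h libraries more than any other. CYP51A1, the lanosterol demethylase, stood at 14.8, 16.0 and 15.2 TPM in DMSO, 11.2, 12.3 and 13.1 at 6 h, 20.8, 20.1 and 22.3 at 24 h, 34.3, 42.3 and 30.5 at 48 h and 46.7, 45.5 and 49.4 at 72 h, lower at 6 h (-0.48 ± 0.07) and already higher at 24 h (0.49 ± 0.07, adjusted p = 4.1e-06). DHCR7, which makes cholesterol from 7-dehydrocholesterol, stood at 39.3, 36.0 and 35.6 TPM in DMSO, 30.1, 33.3 and 26.4 at 6 h, 26.5, 26.2 and 29.4 at 24 h, 77.1, 70.0 and 72.4 at 48 h and 111, 103 and 100.2 at 72 h, and was lower at 24 h (-0.40 ± 0.07, adjusted p = 0.00013) before it rose to 1.47 ± 0.07 at 72 h. EBP, TM7SF2 and PMVK were the members of this group that did not pass at 6 h, and EBP's value there, -0.01, turned to 0.17 with an adjusted p of 0.0089 under total count scaling.

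**Figure D2:**
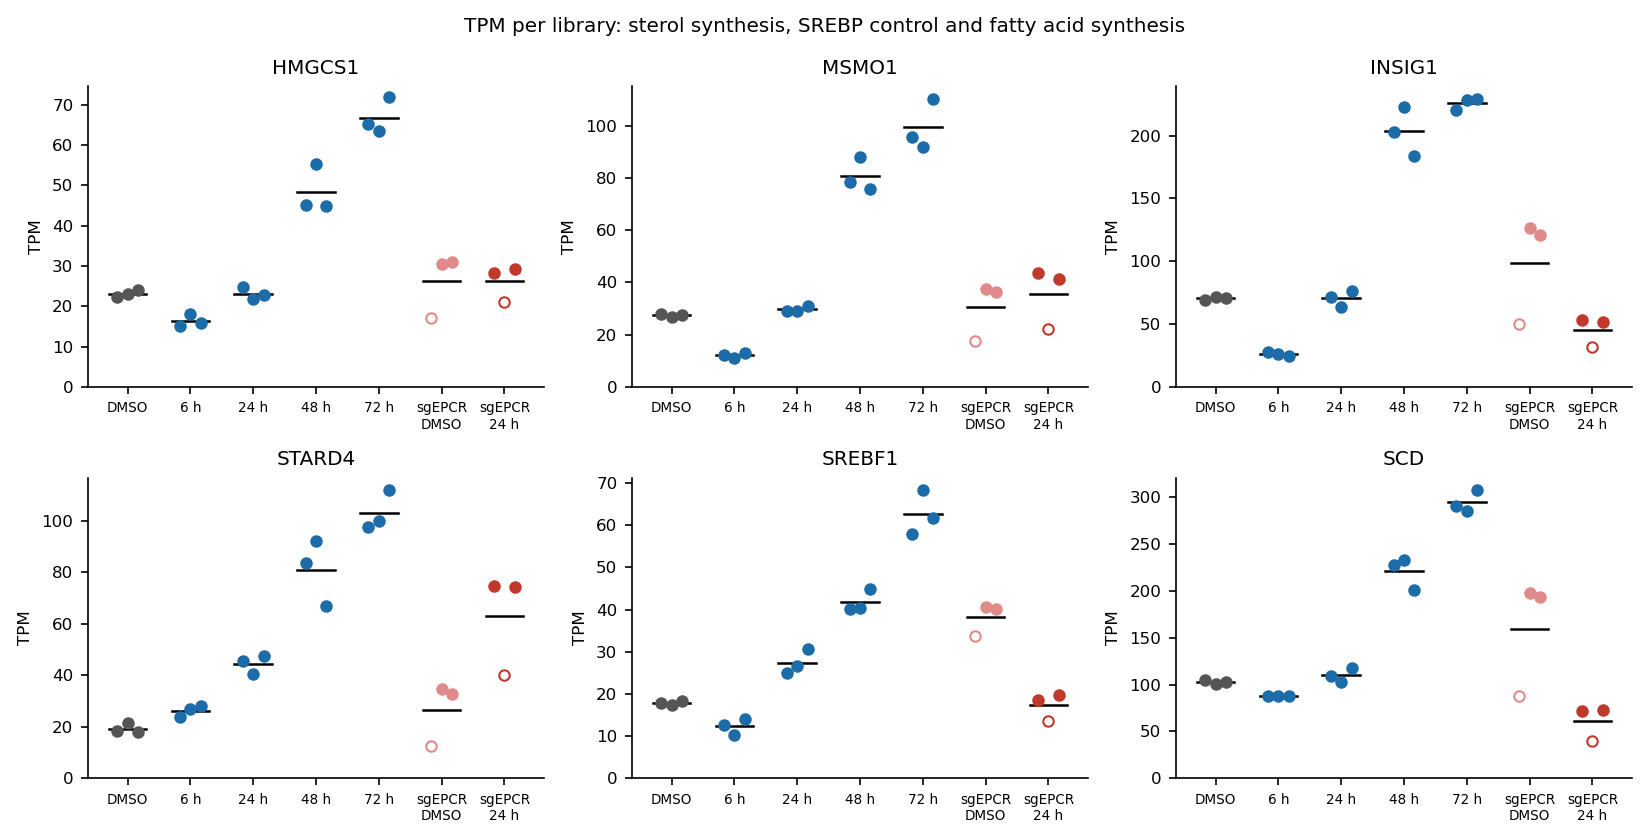
TPM (vertical axes, from 0) in each of the 21 libraries for HMGCS1, MSMO1, INSIG1, STARD4, SREBF1 and SCD, with 1 point per library, bars at the group means, and open points for the 2 libraries with over 20% mitochondrial counts. In control cells all 6 genes are highest at 72 h, and in sgEPCR cells INSIG1, SREBF1 and SCD are lower after UM171 than in the DMSO libraries with filled points.

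In fatty acid synthesis, 5 of 8 genes were lower and 2 higher at 6 h (30.3% and 31.8% of all genes), and 8 of 8 were higher at 72 h (38.8%). FASN, the fatty acid synthase, stood at 121, 127 and 135 TPM in DMSO, 68.4, 69.4 and 70.2 at 6 h, 86.3, 88.0 and 103 at 24 h, 151, 149 and 118 at 48 h and 147, 146 and 148 at 72 h. It fell at 6 h (-1.12 ± 0.06, adjusted p = 1.3e-10), was still lower at 24 h (-0.52 ± 0.06, adjusted p = 4.3e-07), and at 72 h exceeded DMSO by 0.19 ± 0.06, adjusted p = 0.0076. ACLY and ACACA, which supply its acetyl-CoA and malonyl-CoA, were higher at 72 h by 0.51 ± 0.04 and 0.77 ± 0.03, adjusted p = 8.8e-13.

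The enzymes that desaturate and elongate fatty acids had larger fold changes at 72 h than FASN. SCD, which makes monounsaturated fatty acids, stood at 105, 100.2 and 103 TPM in DMSO, 87.6, 88.1 and 87.9 at 6 h, 109, 103 and 118 at 24 h, 228, 233 and 201 at 48 h and 290.4, 285 and 307 at 72 h. It was lower at 6 h (-0.39 ± 0.05, adjusted p = 2e-06), overlapped DMSO at 24 h (0.06 ± 0.05, adjusted p = 0.28) and reached 1.45 ± 0.05, adjusted p = 3.9e-14 at 72 h. FADS2, a desaturase of polyunsaturated fatty acids, stood at 101, 98.0 and 95.1 TPM in DMSO, 101, 99.4 and 97.5 at 6 h, 92.8, 90.8 and 119.8 at 24 h, 275, 269.6 and 279 at 48 h and 356, 345 and 376 at 72 h, with no call at 6 or 24 h and 1.85 ± 0.07, adjusted p = 1.6e-13 at 72 h. FADS1, its partner, stood at 16.1, 19.1 and 16.8 TPM in DMSO, 28.3, 28.6 and 26.9 at 6 h, 24.6, 23.9 and 31.6 at 24 h, 50.2, 46.8 and 58.7 at 48 h and 62.3, 57.1 and 60.1 at 72 h and was higher at every time, from 0.49 ± 0.05 at 6 h to 1.59 ± 0.05, adjusted p = 2.5e-14 at 72 h. FADS1 lies within FADS2 on the opposite strand (chr11:61799627-61829318 in chr11:61792980-61867354), and how the counting used strand is not given in the sources used here, so that reads of the pair could be shared.

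ELOVL6, which elongates palmitate, had the largest rise at 6 h. ELOVL6 (chr4:110045846-110199199) stood at 4.82, 5.30 and 4.40 TPM in DMSO, 11.3, 11.3 and 11.2 at 6 h, 19.9, 19.8 and 21.2 at 24 h, 22.9, 27.8 and 22.5 at 48 h and 20.5, 19.8 and 22.5 at 72 h, and every UM171 library held more than any DMSO library. It was the only gene of the 42 over 2-fold higher at 6 h (1.07 ± 0.06, adjusted p = 1.4e-10), and its rise was 2.07 ± 0.06, adjusted p = 7e-15 at 24 h and 2.06 ± 0.06 at 72 h, a difference between those times of -0.01 ± 0.05, adjusted p = 0.83. LPIN1, a phosphatidate phosphatase and coactivator, stood at 9.62, 10.8 and 10.7 TPM in DMSO, 8.72, 10.5 and 10.2 at 6 h, 16.1, 14.1 and 15.9 at 24 h, 28.2, 29.0 and 27.0 at 48 h and 29.3, 34.0 and 35.6 at 72 h, lower at 6 h (-0.42 ± 0.05) and higher at 72 h (1.49 ± 0.04, adjusted p = 1.2e-14).

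Of the LXR and efflux genes, the transporters rose while 1 of the receptors fell. ABCA1 (chr9:104781006-104928155), which loads cholesterol onto lipid-poor apolipoproteins and is a target of LXR, stood at 5.55, 5.48 and 6.40 TPM in DMSO, 4.07, 4.27 and 4.41 at 6 h, 9.42, 9.80 and 9.60 at 24 h, 13.8, 13.9 and 10.9 at 48 h and 14.3, 15.4 and 16.5 at 72 h. Its 6 h libraries lay below DMSO (-0.73 ± 0.06, adjusted p = 1.5e-08) and all later libraries above (0.71 ± 0.05, adjusted p = 3.5e-09 at 24 h and 1.39 ± 0.05 at 72 h). ABCG1, a second exporter and LXR target, stood at 2.91, 3.37 and 3.19 TPM in DMSO, 4.10, 5.63 and 4.69 at 6 h, 3.73, 4.45 and 4.36 at 24 h, 8.79, 8.61 and 6.85 at 48 h and 11.5, 14.0 and 12.8 at 72 h, and was higher from 6 h (0.44 ± 0.10, adjusted p = 0.00069) to 72 h (1.91 ± 0.09, adjusted p = 2.5e-12).

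MYLIP, an LXR-induced ubiquitin ligase for lipoprotein receptors, stood at 25.7, 25.9 and 25.6 TPM in DMSO, 21.6, 23.2 and 22.8 at 6 h, 23.7, 24.7 and 27.2 at 24 h, 38.6, 41.5 and 32.1 at 48 h and 51.4, 51.4 and 53.2 at 72 h. It was lower at 6 h (-0.38 ± 0.05, adjusted p = 1.4e-05) and higher at 72 h (0.94 ± 0.05, adjusted p = 3.3e-11). NR1H3, which encodes LXR alpha, stood at 4.60, 5.24 and 4.34 TPM in DMSO, 4.97, 5.92 and 6.29 at 6 h, 2.03, 2.50 and 2.33 at 24 h, 2.74, 2.90 and 3.57 at 48 h and 1.83, 2.95 and 3.47 at 72 h. Its level at 24 h was below that of every DMSO library (-0.83 ± 0.12, adjusted p = 8.9e-06) and stayed low at 72 h (-0.57 ± 0.12, adjusted p = 0.00029). NR1H2, which encodes LXR beta and had the higher level of the pair, changed by 0.20 ± 0.08, adjusted p = 0.029 at 72 h. That call was lost when DMSO replicate 2 or 3 or 72 h replicate 2 was left out (0.16 to 0.20, adjusted p from 0.061 to 0.12).

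APOE, which LXR induces in macrophages, was near the limit of detection. Its counts were 32, 12 and 13 in DMSO, 15, 11 and 7 at 6 h, 7, 9 and 4 at 24 h, 19, 9 and 7 at 48 h and 13, 14 and 16 at 72 h. At 24 h APOE was lower (-1.71 ± 0.41, adjusted p = 0.0012), and at 72 h the change did not pass (-0.48 ± 0.36, adjusted p = 0.24). APOC1, its neighbor on chromosome 19, had 0, 1 and 2 counts in DMSO and 2, 7 and 8 at 72 h, and 0 to 4 in every other library.

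PPARG and the lipid storage genes followed different courses. PPARG stood at 6.38, 6.74 and 6.33 TPM in DMSO, 12.2, 13.7 and 11.2 at 6 h, 13.7, 13.8 and 13.2 at 24 h, 14.9, 16.0 and 16.0 at 48 h and 15.9, 16.9 and 17.2 at 72 h, with every UM171 library above every DMSO library. It was higher by 0.70 ± 0.07, adjusted p = 2.4e-07 at 6 h, by 1.06 ± 0.07 at 24 h and by 1.33 ± 0.07, adjusted p = 9.4e-12 at 72 h. Scavenger receptor CD36 (chr7:80369575-80679277), which takes up fatty acids and oxidized lipoproteins and is a target of PPAR gamma, had the largest change of the 42 genes. CD36 stood at 4.36, 3.77 and 4.55 TPM in DMSO, 3.65, 3.12 and 3.40 at 6 h, 37.2, 32.6 and 41.4 at 24 h, 45.0, 48.4 and 27.6 at 48 h and 25.2, 26.3 and 31.2 at 72 h. It was lower at 6 h (-0.52 ± 0.14, adjusted p = 0.004), jumped to 3.29 ± 0.11, adjusted p = 6.1e-14 at 24 h, and from 24 to 72 h fell again by a log2 fold change of -0.39 ± 0.09, adjusted p = 0.00058.

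FABP5, a carrier of fatty acids within the cell, was highest at 24 h. It stood at 226, 208 and 211 TPM in DMSO, 203, 204 and 202 at 6 h, 421, 443 and 398 at 24 h, 337, 322 and 236 at 48 h and 135, 148 and 160.2 at 72 h, higher than DMSO at 24 h (0.94 ± 0.07, adjusted p = 1.2e-09) and lower at 72 h (-0.60 ± 0.07, adjusted p = 3.3e-07). FABP5 has processed pseudogenes, and its share of reads with them is uncertain. FABP4, a PPAR gamma target of fat cells and macrophages, had counts of 5, 3 and 3 at 48 h, 1, 1 and 2 at 72 h and 0 to 2 in every other library, with 0 in all DMSO and 6 h libraries, where a count of 0 allows up to 3, and no test was made.

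PLIN2, which coats lipid droplets, fell before it rose. It stood at 173, 186 and 185 TPM in DMSO, 130.5, 146 and 146 at 6 h, 91.8, 84.8 and 130.1 at 24 h, 208, 218 and 200.4 at 48 h and 353, 289 and 379 at 72 h, lower at 6 h (-0.55 ± 0.12, adjusted p = 0.00058) and 24 h (-0.83 ± 0.12, adjusted p = 7.7e-06) and higher at 72 h (0.91 ± 0.12, adjusted p = 1.5e-06). Its small rise at 48 h (0.29 ± 0.12, adjusted p = 0.032) was lost when DMSO replicate 1, 2 or 3 or 48 h replicate 3 was left out (0.24 to 0.31, adjusted p from 0.054 to 0.087). All 3 libraries at 72 h held more than any other of the time course.

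**Figure D3:**
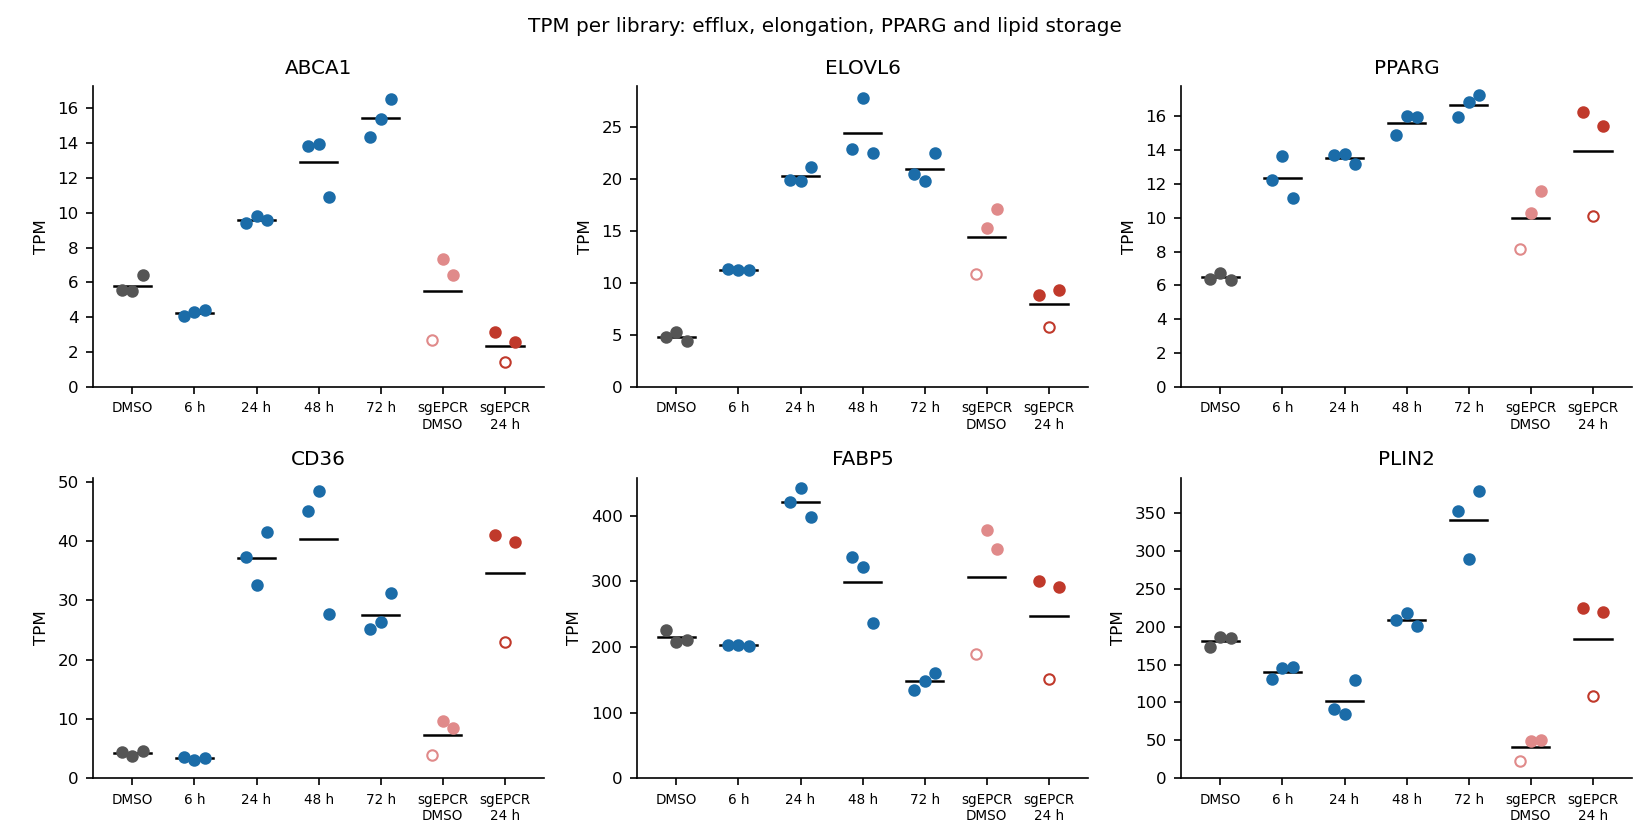
TPM (vertical axes, from 0) in each of the 21 libraries for ABCA1, ELOVL6, PPARG, CD36, FABP5 and PLIN2, with 1 point per library, bars at the group means, and open points for the 2 libraries with over 20% mitochondrial counts. In control cells CD36 is at 3.12 to 4.55 TPM in DMSO and at 6 h and at 25.2 to 48.4 TPM later and FABP5 is highest at 24 h, and PLIN2 is at 22.2 to 50.5 TPM in sgEPCR DMSO against 108 to 225 TPM in sgEPCR UM171.

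Genes around these pathways did not all move the same way at 72 h, when 38.8% of all genes were higher and 36.8% lower. In the isoprenoid branch, which draws on farnesyl diphosphate for prenylation, ubiquinone and dolichol, 8 of 11 genes were lower and 0 higher, with a median of -0.30. PDSS1 (-0.89 ± 0.07, adjusted p = 5.8e-09) and DHDDS (-0.78 ± 0.06, adjusted p = 2.5e-09), which build the ubiquinone and dolichol chains, changed most. Of 14 genes of SREBP processing and sterol sensing, 4 were higher and 6 lower, or 28.6% and 42.9%, near the shares over all genes. The lowest log2 fold change of this list was -1.68, and 1 gene, not named here, was over 2-fold lower. The NF-Y subunit NFYA was lower at -0.77 ± 0.04, adjusted p = 6.9e-12. The site 2 protease gene MBTPS2, whose product frees SREBP from the membrane, was higher by 0.75 ± 0.05, adjusted p = 4.1e-10.

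Of 15 genes of sterol uptake, transport and esterification, 9 were higher and 5 lower, or 60.0% and 33.3% against 38.8% and 36.8% of all genes, with a median of 1.21. VLDLR, a lipoprotein receptor (3.42 ± 0.08, adjusted p = 3.4e-16), GRAMD1A, a sterol carrier at membrane contacts (2.38 ± 0.08), LRP1, another receptor of the family (2.17 ± 0.07), and NPC1, which exports cholesterol from lysosomes (1.81 ± 0.08), rose most. Of 15 genes of fatty acid supply, elongation and activation, 12 were higher and 3 lower, or 80% and 20%, led by ELOVL7 (1.87 ± 0.14) and ACACB (1.78 ± 0.12). Of 12 tested nuclear receptor partners and lipid targets, 7 were higher and 2 lower, or 58.3% and 16.7%, and PPARA, the fatty acid receptor of oxidative tissues, changed most (2.54 ± 0.08, adjusted p = 1.5e-14).

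In sgEPCR cells given UM171 for 24 h, most of the genes that changed were lower than in sgEPCR DMSO. Of 42 tested genes, 22 were lower and 5 higher, where 25.1% and 27.0% of all 15901 tested genes were lower and higher, and the median was -0.59 against -0.01 over all genes. Without the libraries of high mitochondrial share, 30 were lower and 9 higher (36.4% and 34.5% of all genes), with a median of -0.60. In the same fit the control cells' response at 24 h had 13 higher and 6 lower genes (24.5% and 20.2%), with a median of 0.10. At the stricter limits 7 genes were lower and 3 higher in the sgEPCR response (3.33% and 6.99%). With replicate number as a block in the fit, 0 were lower and 0 higher at those limits (0.0755% and 0.641% of all genes). Scaling to total counts moved the median of all genes in the sgEPCR response by 0.17 and gave 11 lower and 5 higher (12.3% and 27.6% of all genes).

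The difference between those responses was tested as an interaction, the sgEPCR response minus the control response. Its control DMSO libraries are labelled 72 h and the others 24 h, so that time and genotype cannot be told apart in it. The median difference of sgEPCR from control cells over the 42 genes was 0.53 in DMSO and 0.01 after UM171. The interaction was negative for 19 of 42 genes and positive for 2 (23.1% and 21.9% of all genes), with a median of -0.56 against -0.02. It was over 2-fold for 11 of the negative and both positive ones (11.9% and 14.0% of all genes), and at the stricter limits 8 were negative and 1 positive (4.17% and 3.6%). Without the libraries of high mitochondrial share it was negative for 29 and positive for 5 (35.6% and 33.6%), with a median of -0.54. In limma on log2(TPM + 1) and under total count scaling, fewer of the 42 genes, and fewer of all genes, had a negative interaction. With replicate number as a block in the fit, 0 of the 42 and 0 of all genes passed the stricter limits in either direction. By role, the interaction was negative for 6 of 8 genes of fatty acid synthesis, 4 of 18 of sterol synthesis, 3 of 6 of SREBP control, 3 of 6 of LXR and efflux and 3 of 4 of PPAR and lipid storage, and positive for APOE and PLIN2. Without the libraries in doubt, the count of negative interactions in sterol synthesis went from 4 to 12, among them HMGCS1 (-0.41 ± 0.07, adjusted p = 7e-05) and MVK (-0.95 ± 0.16, adjusted p = 8.4e-05).

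ELOVL6 had the largest negative interaction. It stood at 10.9, 15.3 and 17.2 TPM in sgEPCR DMSO and 8.86, 5.79 and 9.37 in sgEPCR UM171, and within sgEPCR cells every UM171 library held less than every DMSO library. Its response was -1.28 ± 0.14, adjusted p = 2.5e-05 in sgEPCR cells and 2.08 ± 0.15, adjusted p = 1.4e-06 in control cells, with an interaction of -3.36 ± 0.20, adjusted p = 7.9e-07, or -3.40 without the libraries in doubt. FADS1 stood at 26.0, 36.9 and 40.2 TPM in sgEPCR DMSO and 14.1, 9.71 and 17.8 in sgEPCR UM171, with a response of -1.45 ± 0.07 and an interaction of -2.02 ± 0.10, adjusted p = 2.5e-07. SCD stood at 87.4, 198 and 193 TPM in sgEPCR DMSO and 71.4, 40.2 and 72.5 in sgEPCR UM171, with a response of -1.60 ± 0.07 against 0.06 ± 0.07 in control cells and an interaction of -1.67 ± 0.10, adjusted p = 7.7e-07. For both genes, every sgEPCR UM171 library lay below every sgEPCR DMSO library.

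FASN stood at 38.6, 189 and 192 TPM in sgEPCR DMSO and 83.7, 15.1 and 82.7 in sgEPCR UM171 with a response of -1.38 ± 0.36, adjusted p = 0.0075, but the interaction did not pass with all libraries (-0.87 ± 0.50, adjusted p = 0.18) and did without those in doubt (-0.79 ± 0.07, adjusted p = 1.6e-07). FADS2 stood at 89.2, 191 and 179.5 TPM in sgEPCR DMSO and 115, 45.5 and 120.3 in sgEPCR UM171, with an interaction of -0.99 ± 0.18, adjusted p = 0.0013. LPIN1 was the exception of its group, at 4.35, 11.5 and 12.1 TPM in sgEPCR DMSO and 20.7, 10.8 and 20.9 in sgEPCR UM171, rising in sgEPCR cells by 0.66 ± 0.09, adjusted p = 0.00013 with an interaction of 0.18 ± 0.13, adjusted p = 0.28. ACLY (-0.93 ± 0.26, adjusted p = 0.013) and ACACA (-1.27 ± 0.16, adjusted p = 9.8e-05) also had negative interactions.

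INSIG1 and SREBF1 fell in sgEPCR cells. INSIG1 stood at 50.0, 126 and 121 TPM in sgEPCR DMSO and 53.3, 31.6 and 51.9 in sgEPCR UM171, where DMSO replicate 1 alone overlapped the UM171 libraries, with a response of -1.32 ± 0.09, adjusted p = 5.5e-07 and an interaction of -1.42 ± 0.12, adjusted p = 7.4e-06. SREBF1 stood at 33.7, 40.6 and 40.2 TPM in sgEPCR DMSO and 18.6, 13.7 and 19.8 in sgEPCR UM171, where all 3 UM171 libraries lay below all 3 DMSO libraries, with a response of -1.23 ± 0.21, adjusted p = 0.00067 and an interaction of -2.06 ± 0.30, adjusted p = 0.00028. Control cells had moved the other way, with SREBF1 higher by 0.84 ± 0.21, adjusted p = 0.0084. STARD4 rose in both genotypes: it stood at 12.6, 34.8 and 32.7 TPM in sgEPCR DMSO and 74.6, 40.1 and 74.2 in sgEPCR UM171, with a response of 1.08 ± 0.08, adjusted p = 9.3e-07 against 1.41 ± 0.08, adjusted p = 2.7e-07 in control cells. Its interaction was small (-0.33 ± 0.11, adjusted p = 0.029) and was lost without control DMSO replicate 3, control UM171 replicate 1 or sgEPCR UM171 replicate 1 or 3 (-0.32 to -0.30, adjusted p from 0.061 to 0.067). SREBF2 stood at 28.5, 85.2 and 77.8 TPM in sgEPCR DMSO and 84.7, 25.8 and 85.5 in sgEPCR UM171, with an interaction of 0.11 ± 0.22, adjusted p = 0.73.

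Among the sterol enzymes, ACAT2 stood at 33.4, 79.6 and 81.3 TPM in sgEPCR DMSO and 40.1, 16.6 and 38.4 in sgEPCR UM171, with a response of -1.19 ± 0.06, adjusted p = 1.3e-07 and an interaction of -1.53 ± 0.09, adjusted p = 7e-07. FDFT1 (-0.93 ± 0.09, adjusted p = 2.4e-05), EBP (-0.95 ± 0.14, adjusted p = 0.00034) and CYP51A1 (-0.67 ± 0.16, adjusted p = 0.0057) were the other 3 with negative interactions. HMGCS1 stood at 17.0, 30.5 and 30.9 TPM in sgEPCR DMSO and 28.3, 20.9 and 29.4 in sgEPCR UM171 and SQLE at 61.2, 109 and 121 TPM in sgEPCR DMSO and 146, 94.8 and 146 in sgEPCR UM171, with interactions of -0.31 ± 0.25, adjusted p = 0.33 and 0.06 ± 0.10, adjusted p = 0.68. Neither passed with all libraries, which does not show that they responded alike.

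MSMO1 stood at 17.6, 37.4 and 36.4 TPM in sgEPCR DMSO and 43.5, 22.1 and 41.4 in sgEPCR UM171 (-0.19 ± 0.10, adjusted p = 0.16 for the interaction), IDI1 at 43.7, 98.2 and 94.2 TPM in sgEPCR DMSO and 76.6, 45.8 and 74.5 in sgEPCR UM171 (-0.19 ± 0.13, adjusted p = 0.26) and DHCR7 at 26.4, 58.3 and 55.3 TPM in sgEPCR DMSO and 33.3, 14.6 and 34.5 in sgEPCR UM171 (-0.60 ± 0.32, adjusted p = 0.15). CYP51A1 levels were 11.8, 24.1 and 26.6 TPM in sgEPCR DMSO and 23.7, 16.3 and 24.5 in sgEPCR UM171. For MVD, at 6.69, 33.6 and 31.4 TPM in sgEPCR DMSO and 23.3, 4.34 and 22.9 in sgEPCR UM171, and MVK, at 1.98, 10.8 and 10.3 TPM in sgEPCR DMSO and 6.39, 1.45 and 7.39 in sgEPCR UM171, the library of high mitochondrial share in each group was far below the other libraries, and their interactions had wide errors, -0.23 ± 0.47 and -1.06 ± 0.53.

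The exporters ABCA1 and ABCG1 fell in sgEPCR cells. ABCA1 stood at 2.69, 7.33 and 6.41 TPM in sgEPCR DMSO and 3.13, 1.40 and 2.56 in sgEPCR UM171, with a response of -1.42 ± 0.07, adjusted p = 8e-08 against 0.72 ± 0.07, adjusted p = 1.3e-05 in control cells and an interaction of -2.13 ± 0.10, adjusted p = 1.9e-07. ABCG1 stood at 0.90, 2.91 and 2.55 TPM in sgEPCR DMSO and 1.91, 0.54 and 1.57 in sgEPCR UM171, with a response of -0.90 ± 0.24, adjusted p = 0.009 and an interaction of -1.29 ± 0.33, adjusted p = 0.0086, and MYLIP at 8.47, 25.2 and 25.5 TPM in sgEPCR DMSO and 18.4, 7.58 and 19.7 in sgEPCR UM171, with an interaction of -0.50 ± 0.15, adjusted p = 0.02 that was lost without sgEPCR DMSO replicate 3 (-0.44, adjusted p = 0.051). NR1H3, at 0.78, 3.02 and 2.65 TPM in sgEPCR DMSO and 2.63, 0.89 and 2.26 in sgEPCR UM171, did not pass (0.55 ± 0.37, adjusted p = 0.25). APOE had 2, 3 and 3 counts in sgEPCR DMSO and 8, 1 and 7 in sgEPCR UM171, and its interaction of 2.45 ± 0.83, adjusted p = 0.032 was lost without control DMSO replicate 1, any control UM171 library, sgEPCR DMSO replicate 2 or 3, or sgEPCR UM171 replicate 1 or 3 (1.78 to 2.48, adjusted p from 0.057 to 0.10).

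PLIN2 moved in opposite directions in the 2 genotypes. It stood at 22.2, 49.5 and 50.5 TPM in sgEPCR DMSO and 225, 108 and 219.6 in sgEPCR UM171, with no overlap, against 173, 186 and 185 TPM in control DMSO and 91.8, 84.8 and 130.1 in control UM171 at 24 h. The response was 1.96 ± 0.14, adjusted p = 9.5e-07 in sgEPCR cells and -0.81 ± 0.13, adjusted p = 0.0006 in control cells, and the interaction was 2.77 ± 0.19, adjusted p = 2e-06. CD36 stood at 3.93, 9.59 and 8.46 TPM in sgEPCR DMSO and 41.0, 22.9 and 39.8 in sgEPCR UM171 and rose in both genotypes, by 1.97 ± 0.17 in sgEPCR cells and 3.30 ± 0.18 in control cells, with an interaction of -1.33 ± 0.24, adjusted p = 0.0011. After UM171 the genotypes did not pass for CD36 (0.18 ± 0.16, adjusted p = 0.41), whereas in DMSO sgEPCR cells held more (1.51 ± 0.18, adjusted p = 9.9e-05). PPARG stood at 8.15, 10.3 and 11.6 TPM in sgEPCR DMSO and 16.2, 10.1 and 15.4 in sgEPCR UM171, with an interaction of -0.86 ± 0.14, adjusted p = 0.00061, and FABP5 at 189, 379 and 349 TPM in sgEPCR DMSO and 300.4, 151 and 291 in sgEPCR UM171, with an interaction of -1.53 ± 0.12, adjusted p = 4.7e-06.

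Without the 2 libraries of high mitochondrial share, the interactions named above kept their sign. In fatty acid synthesis the interaction was then -2.03 for FADS1, -1.70 for SCD, -1.26 for ACACA, -0.92 for ACLY, -0.90 for FADS2 and 0.07 for LPIN1. Among the sterol genes it was -1.52 for ACAT2, -0.91 for FDFT1, -0.87 for EBP and -0.81 for CYP51A1, and IDI1 (-0.28 ± 0.05, adjusted p = 0.00018), DHCR7 (-0.56 ± 0.11, adjusted p = 0.0003) and SREBF2 (0.23 ± 0.06, adjusted p = 0.0044) came to pass, while SQLE (0.04 ± 0.06, adjusted p = 0.55), MSMO1 (-0.17 ± 0.08, adjusted p = 0.083) and MVD (-0.13 ± 0.09, adjusted p = 0.23) did not. It was -1.53 for INSIG1, -1.92 for SREBF1 and -0.38 for STARD4. For efflux it was -2.14 for ABCA1, -1.31 for ABCG1, -0.51 for MYLIP, 0.53 ± 0.23, adjusted p = 0.056 for NR1H3 and 2.88 for APOE. It was 2.80 for PLIN2, -1.34 for CD36, -0.73 for PPARG and -1.44 for FABP5.

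**Figure D4:**
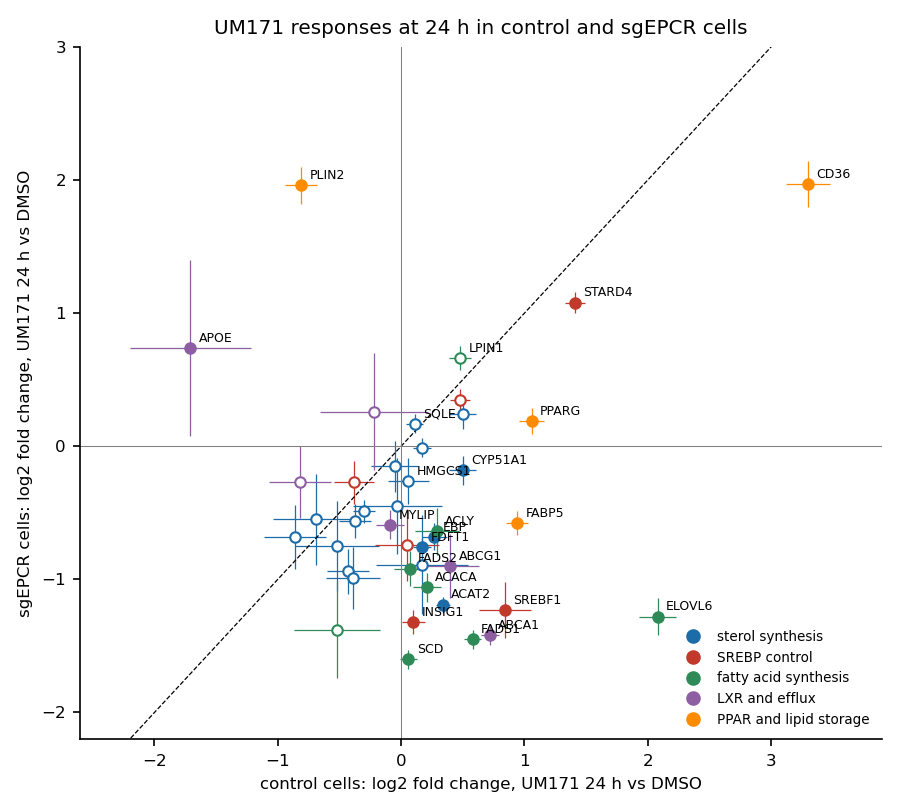
Log2 fold change of UM171 at 24 h against DMSO in control cells (horizontal axis) and in sgEPCR cells (vertical axis) for the 42 tested genes, colored by role, with standard errors as lines, filled points where the interaction had an adjusted p under 0.05, and a dashed line of equal responses. ELOVL6 lies farthest below the dashed line (2.08 in control and -1.28 in sgEPCR cells) and PLIN2 farthest above it (-0.81 and 1.96).

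In DMSO, most of the genes that differed were higher in sgEPCR than in control cells. Of the 42, 22 were higher and 3 lower (17.4% and 16.3% of all genes), with a median of 0.53 against 0.00. At the stricter limits 6 were higher and 1 lower (1.43% and 1.41%), and without the library of high mitochondrial share 35 were higher and 3 lower (30.3% and 30.0%), with a median of 0.63. This median turned to -0.05, against -0.32 over all genes, in limma on log2(TPM + 1), where 3 were higher and 2 lower (1.21% and 8.1% of all genes), and total count scaling, which moved the median of all genes by -0.25, gave 13 higher and 2 lower (6.8% and 18.5%). ELOVL6 was the most raised (2.16 ± 0.15, adjusted p = 2.9e-06), followed by CD36, SREBF1 (1.27 ± 0.21, adjusted p = 0.001), FADS1 (1.18 ± 0.07) and ACAT2 (1.14 ± 0.06). NR1H3 (-0.90 ± 0.26, adjusted p = 0.02), APOE (-2.54 ± 0.57, adjusted p = 0.0057) and PLIN2 (-1.77 ± 0.14, adjusted p = 7.3e-06) were lower, with the NR1H3 call lost without control DMSO replicate 2 or 3 (-0.89 and -0.87, adjusted p = 0.058 and 0.062). These libraries also differ in the labelled time of culture, 24 h against 72 h.

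After UM171 for 24 h, where the labelled times match, 6 genes were higher in sgEPCR cells and 12 lower (20.8% and 22.2% of all genes), with a median of 0.01. At the stricter limits 0 were higher and 2 lower (2.67% and 1.79%), and without the library in doubt 15 were higher and 16 lower (32.4% and 35.9%). SQLE (0.75 ± 0.07, adjusted p = 1.7e-05), STARD4 (0.70 ± 0.08) and PLIN2 (1.00 ± 0.14, adjusted p = 0.00017) were among the higher, and ABCA1 (-1.83 ± 0.07, adjusted p = 8.8e-08), ABCG1 (-1.59 ± 0.24) and ELOVL6 (-1.19 ± 0.14, adjusted p = 7.5e-05) among the lower. For fatty acid synthesis, 4 of 8 were lower and 1 higher, and for LXR and efflux 3 of 6 were lower.

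Proliferation genes moved with these comparisons, while the mitochondrial share was high in sgEPCR DMSO replicate 1 and sgEPCR UM171 replicate 2 only. The summed level of the 6 proliferation genes was 1265 and 1272 TPM in the sgEPCR DMSO libraries without a high mitochondrial share and 779.7 and 785 TPM in such sgEPCR UM171 libraries, whereas in control cells the 24 h libraries were above DMSO. Without the libraries of high mitochondrial share, the macrophage-associated sum was 79.1 and 86.1 TPM in sgEPCR DMSO and 143 and 142 TPM in sgEPCR UM171. With all libraries it was 79.1 to 132 TPM and 142 to 174 TPM. The myeloid marker sum was likewise 472 and 471 TPM against 663 and 670 TPM, and with all libraries 390.4 to 472 TPM and 663 to 726 TPM. What part these gene groups had in the lipid gene results was not tested. The summed sterol synthesis level was 716 TPM in sgEPCR DMSO replicate 1 against up to 1620 TPM in the same group, and 599 TPM in sgEPCR UM171 replicate 2 against up to 1190 TPM.

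**Figure D5:**
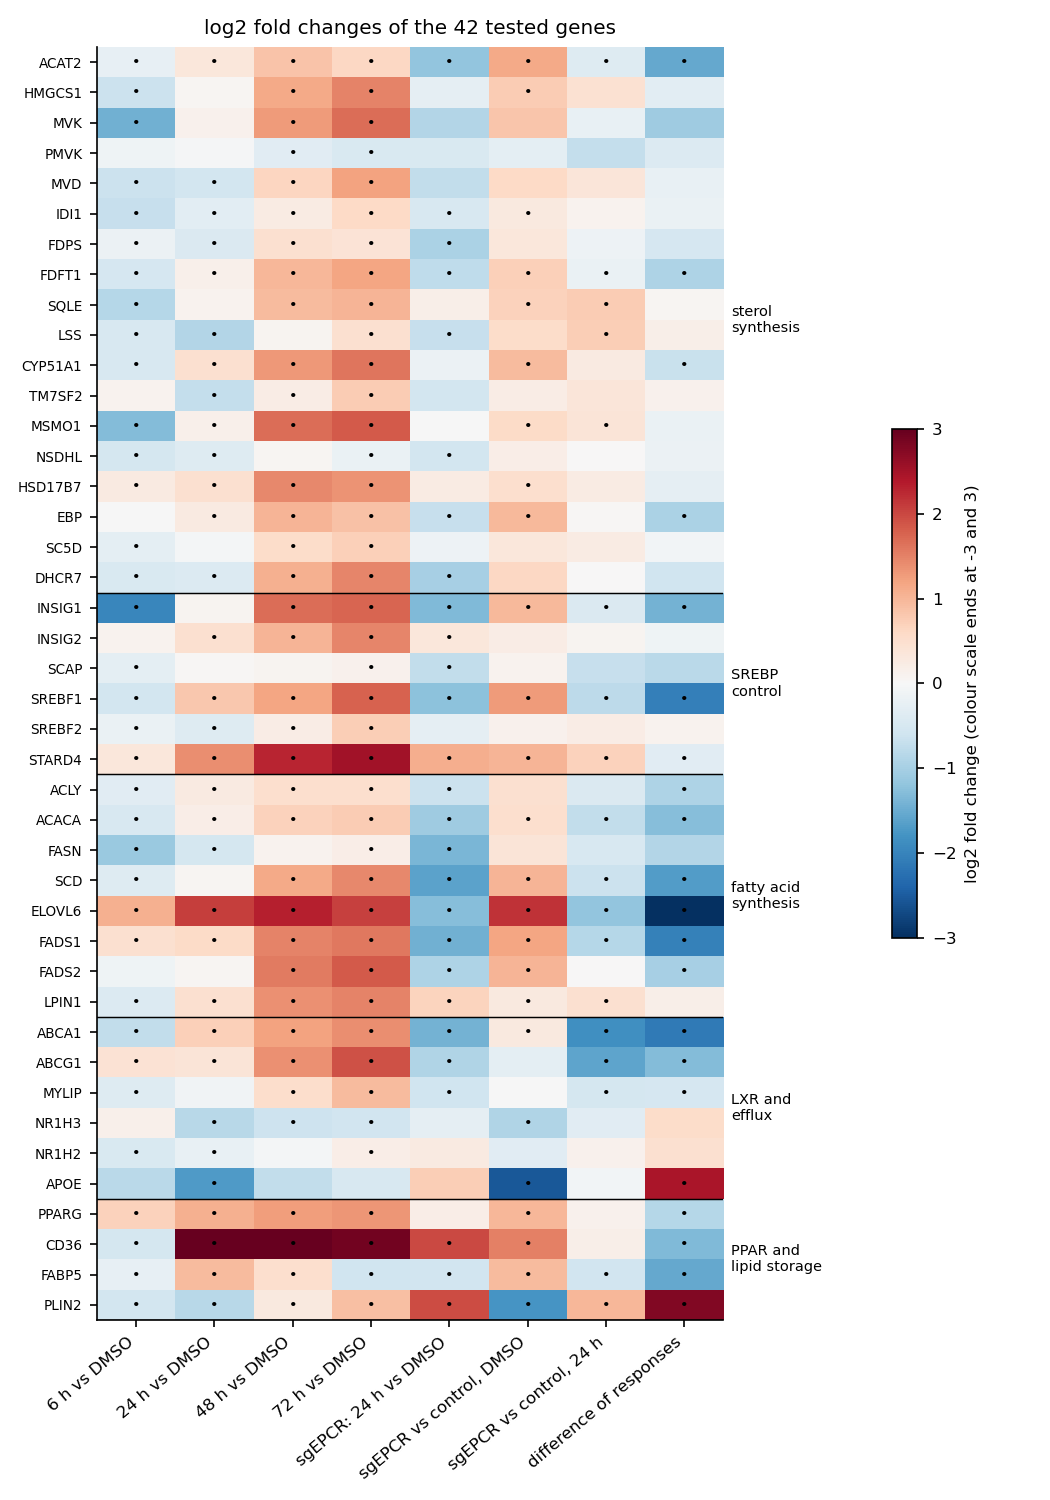
Log2 fold changes (color, blue lower and red higher, scale ending at -3 and 3) of the 42 tested genes (vertical, by role) in 8 comparisons (horizontal), with a dot where the adjusted p was under 0.05. Blue prevails at 6 h, red at 48 and 72 h and in sgEPCR DMSO against control DMSO, and blue in the sgEPCR response and in the difference of responses, where PLIN2 at 2.77 and APOE at 2.45 are red.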

How the data were processed

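Poly(A) RNA of 21 OCI-AML5 libraries in 7 groups was sequenced with a stranded kit, at 24.3 to 51.5 M counts per library. The authors deposited RSEM's estimated counts per gene, not normalized, and TPM, a level corrected for transcript length with an equal total in every library. Submitters' processing notes name CASAVA 1.8.2, Trimmomatic 0.35, STAR 2.5.1b, RSEM 1.2.28 and GRCh38, and the study's methods name kallisto and sleuth. Each of 45 entries for Y copies of genes shared by X and Y was added to its X entry.

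Groups came from the labels. Estimated counts were rounded and tested with edgeR 4.0.16 (R 4.3.3), using filterByExpr, TMM scaling, the quasi-likelihood test and Benjamini-Hochberg adjustment across the genes tested, in a time course model of 15 libraries (16575 genes) and a genotype model of 12 (15901 genes). The standard error was taken as the size of the log2 fold change over the root of its F statistic. DESeq2 1.42.0, limma 3.58.1 on log2(TPM + 1), other scalings, filters and left-out libraries were tried. In simulated data all genes of a model had the same spread, changed genes averaged over 100 counts and no other gene differed between groups. Changed genes of low count and libraries of high mitochondrial share were not simulated, so the rates need not hold for the real libraries. There edgeR recovered 100 of 100 genes changed by 1 on the log2 scale at 72 h, with 10 false calls. In the interaction it recovered 34 of 100 at 1 and 99 of 100 at 2, with 7 false calls.

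Members and gene lists were chosen with earlier results of these data known. Values in every library were given for genes with fixed roles and for the 20 members with the largest changes over 2-fold at an adjusted p under 0.05 and a mean log2 CPM above 0. Genes outside the 44 came from fixed lists, at most 4 of each, by size of change, save for the lowest gene of SREBP processing and sterol sensing, which was not named. Limits from counts cover counting error only. Promoter sequences came from RefSeq (GRCh38.p14).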

Additional observations from a re-analysis of the deposited data

Results flagged for a closer look

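Responses to UM171 at 24 h differed between sgEPCR and control cells by over 2-fold, with an adjusted p under 0.05 for the interaction in edgeR's quasi-likelihood test, for 13 of the 42 tested genes (11.9% of all genes differed this far downward and 14.0% upward). The log2 difference, sgEPCR response minus control response, was -3.36 for ELOVL6, -2.13 for ABCA1, -2.06 for SREBF1, -2.02 for FADS1, -1.67 for SCD, -1.53 for ACAT2, -1.53 for FABP5, -1.42 for INSIG1, -1.33 for CD36, -1.29 for ABCG1 and -1.27 for ACACA. It was 2.77 for PLIN2 and 2.45 for APOE, the latter on 1 to 8 counts per sgEPCR library. Without the 2 libraries in which mitochondrial genes took over 20% of counts, the 13 differences ran from -3.40 for ELOVL6 to 2.88 for APOE, with PLIN2 at 2.80 and every sign kept. Of these genes, CD36 rose in both genotypes, while ELOVL6, ABCA1, SREBF1 and FADS1 rose in control cells and fell in sgEPCR cells. The control DMSO libraries that enter each difference are labelled 72 h and the others 24 h, so that time and genotype cannot be told apart in it.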

How the results depend on the processing

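Of 6290 gene values under the alternatives, 5832 kept their direction and their side of the threshold, 292 lost the call, 156 gained it and 10 turned direction, 7 of them in limma on log2(TPM + 1) and 3 under total count scaling. The cause was not tested. Total count scaling gave FDPS 0.01 and EBP 0.17 at 6 h and NSDHL -0.00 from 6 to 24 h. In limma, EBP was 0.15 at 6 h and TM7SF2 -0.12 at 48 h. In sgEPCR against control DMSO, limma gave IDI1 -0.25, HSD17B7 -0.13, LPIN1 -0.25 and ABCA1 -0.15, and the STARD4 interaction was 0.11.

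Counts of the 42 genes past the threshold moved by over 1.5 times as follows. Total count scaling gave 10 higher at 6 h, 11 lower in the sgEPCR response, 13 higher in sgEPCR against control DMSO and 12 negative interactions. Over all genes the same counts were 7427 of 16575 at 6 h, and then 1956, 1081 and 2123 of 15901. Limma gave 1 lower at 48 h, 2 lower at 72 h, 3 higher and 5 lower in the sgEPCR response, 3 higher in sgEPCR against control DMSO, 0 higher and 5 lower in the UM171 comparison of genotypes (there edgeR called 6 higher), and 1 positive and 4 negative interactions. Of all 16575 genes limma called 5161 lower at 48 h and 4886 lower at 72 h. Of all 15901 genes it called 2639 higher and 557 lower in the sgEPCR response and 193 higher in sgEPCR against control DMSO. It called 783 higher and 1206 lower in the UM171 comparison of genotypes, and 1411 positive and 600 negative interactions. A fit of all 21 libraries gave 1 lower at 48 h, 2 lower at 72 h and 2 lower from 6 to 24 h. Of all 16786 genes of that fit, 4353, 4851 and 4278 were lower. Upper quartile scaling and a minimum of 10 counts in every library each gave 8 higher in the sgEPCR response. Over all genes, 4928 of 15901 and 3463 of 12699 were higher. The minimum of 10 counts, no filter and the replicate block each gave 1 positive interaction. Over all genes, 2946 of 12699, 3176 of 29884 and 2396 of 15901 were positive. Without the libraries of high mitochondrial share there were 9 higher in the sgEPCR response, 35 higher in sgEPCR against control DMSO, 15 higher in the UM171 comparison of genotypes, and 5 positive and 29 negative interactions. The shares over all genes were, in the same order, 34.5%, 30.3%, 32.4%, 33.6% and 35.6%.

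At an adjusted p under 0.0001 and over 2-fold, counts higher and lower were 1 and 4 at 6 h, 4 and 0 at 24 h, 20 and 0 at 48 h, 22 and 0 at 72 h, 8 and 0 from 6 to 24 h, 19 and 1 from 24 to 72 h, 3 and 7 in the sgEPCR response, 6 and 1 in sgEPCR against control DMSO, 0 and 2 in the UM171 comparison of genotypes, and 1 and 8 in the interaction.

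Leaving out 1 library at a time gave, for higher and lower, 6 to 6 and 29 to 30 at 6 h, 18 to 20 and 12 to 14 at 24 h, 32 to 35 and 2 to 3 at 48 h, 35 to 37 and 3 to 4 at 72 h, 27 to 31 and 5 to 6 from 6 to 24 h, 35 to 36 and 3 to 3 from 24 to 72 h, 5 to 6 and 19 to 24 in the sgEPCR response, 20 to 26 and 2 to 3 in sgEPCR against control DMSO, 5 to 10 and 11 to 12 in the UM171 comparison of genotypes, and 1 to 3 and 18 to 23 in the interaction.

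Whether libraries of the same number share more than the number, such as a clone, is not given. Over 30 same-numbered pairs of the time course, correlations of deviations from group means ran from -0.082 to 0.079. For sgEPCR DMSO with sgEPCR UM171 they were -0.56, -0.55 and 0.401 for numbers 1, 2 and 3. Both sgEPCR group means include a library of high mitochondrial share, so these values cannot show whether the libraries are paired. At an adjusted p under 0.05 the replicate block changed no other count by over 1.5 times. At the stricter limits it left 0 higher and 0 lower of the 42 genes in the interaction, where 0 of all genes passed, and 0 and 0 in the sgEPCR response (0.641% and 0.0755% of all genes). It gave 4 and 1 in sgEPCR against control DMSO and 0 and 1 in the UM171 comparison of genotypes, and the time course counts did not move. This pairing of settings, too, was chosen after seeing the data. For comparisons between genotypes the block used the number shared by genotypes, a choice made after seeing the data. Depth limits APOE, APOC1 and FABP4.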
